A study of Homo sapiens with 4 samples.

Results

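The RNAs described here are those of 10 genes that encode subunits of the SMC complexes of human chromosomes, or the factor that loads one of them. They are SMC1A, SMC3, RAD21, STAG1, STAG2 and NIPBL for cohesin, SMC2 and SMC4 for condensin, and SMC5 and SMC6 for the SMC5/6 complex. The genes were chosen by symbol, with earlier results of these data known. All 10 were found among the 63677 genes counted by RNA-seq in HCT116 cells, a human colorectal cancer line. Cells were transfected with the anti-GAA antisense oligonucleotide (ASO), a gapmer of TTC triplets that pairs with GAA repeats in RNA and recruits RNase H, or with a control ASO of scrambled sequence. There were 2 libraries of each ASO, replicates 1 and 2, and pairs of values are given below in that order. No untreated library was analysed here. The labels give 48 h of transfection for all 4 libraries, whereas the methods of the study give a shorter time for ASOs. The labels name a total RNA kit and the methods a stranded mRNA kit, so the treatment of RNAs without a poly(A) tail is not settled.

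SMC proteins are long ATPases that fold back on themselves through an antiparallel coiled coil and pair with a partner SMC protein at a hinge. SMC1A and SMC3 form the cohesin ring that RAD21 closes, which holds sister chromatids together and extrudes chromatin loops, whereas SMC2 and SMC4 form the core of the condensins, which compact chromosomes in mitosis. SMC5 and SMC6 act in the repair of broken DNA and at stalled replication forks. Long coiled coils are rich in glutamate and lysine, and in the genetic code GAA is a codon of glutamate and AAG of lysine, so a GAA run in a coding sequence can be read as either.

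The longest perfect GAA run in the longest annotated transcript ranged from 8 nt to 16 nt among the 10 genes, and in all 10 it lay in the coding sequence. The sequences below are shown because they hold the longest run of GAA, the repeat that the anti-GAA ASO targets. They are 30 nt of the RNA strand from GRCh38, each within 1 coding exon, with the run in capitals. Pairing was not measured, and the best match to the ASO can lie elsewhere, as in SMC2. NIPBL had the longest run, SMC5 the smallest p of the 10 genes, and SMC1A, with a run of 11 nt, was not lower with the anti-GAA ASO. SMC2 and SMC4 are the condensin partners.
NIPBL (chr5:37063816-37063845, plus strand): ccctgatGAAGAAGAAGAAGAAGgggaggt
SMC1A (chrX:53412940-53412969, minus strand): aactgaaggAGAAGAAGAAGgagctgggca
SMC2 (chr9:104132014-104132043, plus strand): tgacttgatGAAGAAGAAGAgaattgtaga
SMC5 (chr9:70347626-70347655, plus strand): atacaaaaagAGAAGAAGAAatagaacagt
SMC4 (chr3:160416331-160416360, plus strand): ggaaaaagagaAAGAAGAAaaaaaattaaa

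The run of NIPBL was 16 nt long, lay in exon 46 of 47 at 93.8% of the coding length, and was read as GAA codons. The runs of SMC1A and SMC2 were 11 nt each and were read as AAG codons, at 21.4% and 83.7% of the coding length. SMC3, SMC5 and SMC6 had runs of 10 nt, STAG2 of 9 nt, and RAD21, STAG1 and SMC4 of 8 nt. Of these, STAG2 was read as AAG codons and the other 6 as GAA codons. NIPBL alone had a second run of at least 12 nt, of 12 nt, at 46.0% of its coding length. A run of at least 9 nt was present in 7 of the 10 genes (70.0%), against 20.1% of the 14751 tested genes with a transcript sequence and 32.8% of the 3277 tested genes whose transcripts were as long as those of the 10 genes (5240 to 10425 nt). A run of at least 12 nt was present in NIPBL only, against 2.54% and 4.79% of the same sets. Runs of TTC, the reverse complement of the repeat, reached 6 to 8 nt in the 10 genes.

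The full target of the ASO, 7 GAA triplets or 21 nt, was not present in any of the 10 RNAs. The best ungapped match was 18 of 21 nt in NIPBL, 17 nt in SMC1A, RAD21 and SMC4, 16 nt in SMC3, STAG1, SMC2, SMC5 and SMC6, and 15 nt in STAG2. A match of at least 16 nt was present in 17.4% of tested genes and in 27.6% of those with transcripts as long. The best match of SMC5, from chr9:70347631-70347651, is shown with the matching bases in capitals, beside that of NIPBL at chr5:37063820-37063840.
SMC5: aAAagAGAAGAAGAAatAGAA
NIPBL: GAtGAAGAAGAAGAAGAAGgg

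The libraries held 10538284 to 17894953 counts, the lowest in replicate 1 of the anti-GAA ASO. Markers of colorectal epithelium were present, with EPCAM at 628 to 740 CPM (counts scaled to library size) and KRT19 at 1114 to 1639 CPM, while CDX1 was at 0 in all 4 libraries and VIL1 at or below 0.112 CPM. Here CPM uses library sizes corrected by TMM factors. Of the 8 epithelial markers, EPCAM, CDH1, KRT8 and KRT18 were lower in both anti-GAA libraries than in both controls, with log2 fold changes of −0.21, −0.40, −0.27 and −0.54, and CDX2 was higher in both, with 0.28. Of all tested genes, 16.9% were lower and 15.5% higher in this way. KRT18 alone had an unadjusted p under 0.05 in edgeR, where 3.46% of all tested genes were lower and 1.02% higher. The summed level of the 8 was 2575 and 2907 CPM in the anti-GAA libraries and 2669 and 2911 CPM in the controls. Of 8 markers of other cell types, CD3E, PECAM1 and COL1A2 were at 0 in all 4 libraries, and PTPRC, GFAP and ALB stayed below 1 CPM, ALB with 0 and 0.112 against 0.848 and 0.472 CPM. COL1A1 had 10.1 to 14.6 CPM and DES 1.41 to 5.31 CPM, both with overlapping groups, and the 8 summed to 11.6 and 16.9 against 15.3 and 20.4 CPM. The part of these markers in the results was not tested. The second principal component of the tested genes, with 33.1% of the variance, separated the ASOs. Libraries of the same replicate number resembled each other, since the first component, with 52.7%, separated the numbers and not the ASOs. The difference within each pair of the same number is therefore given for each of the 10 genes. Nothing in the labels says that the replicates were separate cultures, so p-values measure the spread between these libraries only.

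All 10 genes passed the filter on low counts. They were chosen with earlier results of these data known, so the comparisons with all tested genes are no independent test. With the anti-GAA ASO, 9 of the 10 had a lower level and only SMC1A a higher one, with a median log2 fold change of −0.53 against 0.013 for all 15116 tested genes. In edgeR's quasi-likelihood test none of the 10 passed an adjusted p of 0.05, and neither did any other gene (0% of tested genes lower and 0% higher). SMC3, NIPBL and SMC5 were lower at an unadjusted p under 0.05 in edgeR and none of the 10 was higher, where 3.46% of all tested genes were lower and 1.02% higher. DESeq2 also called none of the 10 at an adjusted p of 0.05 and put SMC3, NIPBL and SMC5 lower at an unadjusted p under 0.05. Of all tested genes, DESeq2 called 0.0331% lower and 0% higher after adjustment, and had 2.1% lower and 0.662% higher before it. When the replicate number was added as a block, SMC5 alone was called by edgeR, where 1.37% of all tested genes were called lower and 0.337% higher. An unadjusted p under 0.05 was reached in that fit by 7 of the 10, all lower, where 9.7% of all tested genes were lower and 6.86% higher. Both anti-GAA libraries lay below both control libraries for 6 of the 10 genes (16.9% of all tested genes) and above them for none (15.5%). Among tested genes with transcripts as long as those of the 10 genes, these shares were 21.6% and 12.4%. In total RNA of a culture, a smaller share of cells that express a gene and less RNA per cell cannot be told apart.

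**Figure D1:**
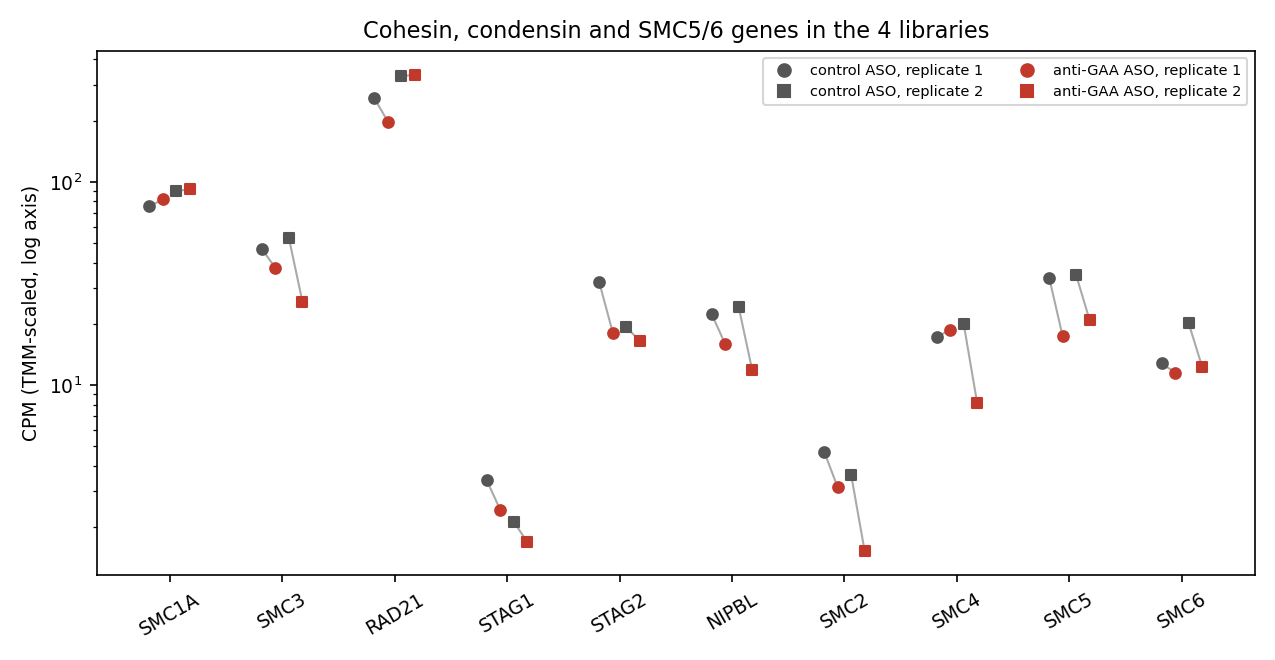
Level of each gene in the 4 libraries, in CPM on a log axis, with grey for the control ASO, red for the anti-GAA ASO, circles for replicate 1, squares for replicate 2, and lines joining libraries of the same number. RAD21 is the most abundant, at 198 to 337 CPM, and STAG1 and SMC2 the least, below 5 CPM, and the red points of SMC3, STAG2, NIPBL, SMC2, SMC5 and SMC6 lie below all grey points of the same gene.

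Levels can be compared between genes only per length, and were divided by the length of the canonical transcript in kb. On that scale RAD21 had 80.2 ± 14.01 CPM per kb with the control ASO (SD, n = 2), far above SMC3 at 9.01 ± 0.796 and SMC1A at 8.52 ± 1.02, whose ranges overlapped. SMC5 followed at 5.75 ± 0.114 CPM per kb, and below it STAG2 (4.15 ± 1.44), SMC4 (3.64 ± 0.384) and SMC6 (3.14 ± 0.997) could not be ordered beyond their spread. NIPBL had 2.23 ± 0.123, SMC2 0.699 ± 0.131 and STAG1 0.455 ± 0.148 CPM per kb, all SD with n = 2. STAG1 was thus the lesser of the alternative STAG subunits in every library.

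Among the core subunits of the cohesin ring, SMC3 was lower with the anti-GAA ASO and its partner SMC1A was not. SMC3 (ENSG00000108055, chromosome 10) had 37.7 and 25.7 CPM in the anti-GAA libraries and 46.6 and 52.8 CPM in the controls. The groups did not overlap, and the anti-GAA mean was 63.8% of the control mean. SMC3 had a log2 fold change of −0.65 (SE 0.25, adjusted p = 0.996 from edgeR), with −0.31 and −1.03 in the pairs of replicates 1 and 2, and was −0.40 when anti-GAA replicate 2 was left out.

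SMC1A (ENSG00000072501, chromosome X) had 81.9 and 92.2 CPM in the anti-GAA libraries, against 75.7 and 89.7 CPM in the controls. The groups overlapped, and each anti-GAA library was slightly above its control, by 0.11 and 0.040 on the log2 scale. The log2 fold change was 0.075 (SE 0.20, adjusted p = 0.996 from edgeR), and its sign was the opposite with scaling to total counts (−0.021) and when control replicate 1 (−0.052) or anti-GAA replicate 2 (−0.010) was left out. RAD21 (ENSG00000164754), the subunit that separase cuts at anaphase, had 198 and 337 CPM in the anti-GAA libraries, against 257 and 330 CPM in the controls. The pairs disagreed, with −0.38 and 0.030, and the log2 fold change of −0.14 (SE 0.29, adjusted p = 0.996 from edgeR) was −0.57 when anti-GAA replicate 2 was left out, and positive when anti-GAA replicate 1 (0.21) or control replicate 2 (0.061) was left out, and with a correction for transcript length and GC content (0.036).

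STAG2 and STAG1 are alternative subunits that bind RAD21, and both had lower levels with the anti-GAA ASO in both pairs. STAG2 (ENSG00000101972, chromosome X) had 18.1 and 16.4 CPM in the anti-GAA libraries, against 31.95 and 19.3 CPM in the controls. Its groups did not overlap, but the control libraries differed by −0.72 (replicate 2 minus replicate 1 on the log2 scale), more than the fold change between the ASOs. STAG2 had a log2 fold change of −0.57 (SE 0.29, adjusted p = 0.996 from edgeR), with −0.82 and −0.24 in the pairs, and moved to −0.18 when control replicate 1 was left out and to −0.88 when control replicate 2 was. STAG1 (ENSG00000118007, chromosome 3) had counts of only 24, 30, 52 and 36 in anti-GAA replicates 1 and 2 and control replicates 1 and 2, or 2.42, 1.69, 3.39 and 2.12 CPM. Its groups overlapped, with a log2 fold change of −0.44 (SE 0.44) and −0.46 and −0.31 in the pairs. That value was −0.075 without control replicate 1, −0.18 without anti-GAA replicate 2, −0.70 without anti-GAA replicate 1 and −0.73 without control replicate 2. The exons of PCCB on the other strand share 21.2% of the exonic sequence of STAG1, and without knowing whether reads were counted by strand its value is uncertain.

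NIPBL (ENSG00000164190, chromosome 5), which loads cohesin onto DNA and drives its loop extrusion, carries the longest GAA run of the 10 genes. It had 15.9 and 11.8 CPM in the anti-GAA libraries, against 22.3 and 24.1 CPM in the controls. Both anti-GAA libraries were below both controls, and the anti-GAA mean was 59.6% of the control mean. Its log2 fold change was −0.75 (SE 0.25, adjusted p = 0.996 from edgeR), with −0.49 and −1.02 in the pairs, and it remained between −0.55 and −0.97 when each library was left out in turn. With the replicate block it was −0.77 (SE 0.18, adjusted p = 0.0530 from edgeR), just above the threshold.

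The condensin genes SMC2 and SMC4 had lower levels in replicate 2, and differed from each other in replicate 1. SMC2 (ENSG00000136824, chromosome 9) had counts of 31 and 27 in the anti-GAA libraries, against 72 and 61 in the controls, or 3.13 and 1.52 against 4.70 and 3.60 CPM. Its groups did not overlap. The log2 fold change of −0.87, the lowest of the 10 genes, had an SE of 0.45 (adjusted p = 0.996 from edgeR), with −0.56 and −1.18 in the pairs. Leaving out anti-GAA replicate 2 took SMC2 to −0.40, above SMC5 at −0.97, and leaving out anti-GAA replicate 1 took it to −1.44.

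SMC4 (ENSG00000113810, chromosome 3) had 18.7 and 8.15 CPM in the anti-GAA libraries, against 17.2 and 19.99 CPM in the controls. Replicate 1 of the anti-GAA ASO lay between the controls, and replicate 2 far below them. The pairs gave 0.12 and −1.28. The log2 fold change of −0.49 (SE 0.39, adjusted p = 0.996 from edgeR) therefore rested on replicate 2 of the anti-GAA ASO, and was 0.0099 without it and −1.18 without replicate 1. The exons of TRIM59 on the other strand share 19.0% of the exonic sequence of SMC4, and those of IFT80 2.98%, so its counts are uncertain in the same way as those of STAG1. To a smaller extent this also holds for RAD21, which shares 4.01% with UTP23, and for SMC1A, STAG2 and SMC6, which share less with genes on the other strand.

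SMC5 and SMC6 both had lower levels, and SMC5 had the smallest p of the 10 genes. SMC5 (ENSG00000198887, chromosome 9) had 17.4 and 20.8 CPM in the anti-GAA libraries, against 33.7 and 34.7 CPM in the controls. The groups were well apart, the control libraries differed by only 0.040 on the log2 scale, and the anti-GAA mean was 55.9% of the control mean. The log2 fold change was −0.84 (SE 0.21, adjusted p = 0.890 from edgeR), with −0.95 and −0.73 in the pairs. With the replicate block SMC5 fell, with a log2 fold change of −0.84 (SE 0.16, adjusted p = 0.0174 from edgeR). An adjusted p of 0.0953 came from DESeq2 with this block, which was chosen after seeing the data, and the adjusted p of SMC5 in the other fits ranged from 0.0284 (block with the length and GC correction) to 1.00.

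SMC6 (ENSG00000163029, chromosome 2) had counts of 114 and 219 in the anti-GAA libraries, against 196 and 342 in the controls. Its groups did not overlap on the CPM scale, but the control libraries differed by 0.65 on the log2 scale. SMC6 had a log2 fold change of −0.47 (SE 0.29, adjusted p = 0.996 from edgeR), with −0.15 and −0.71 in the pairs, and moved to −0.092 when control replicate 2 was left out and to −0.77 when control replicate 1 was.

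**Figure D2:**
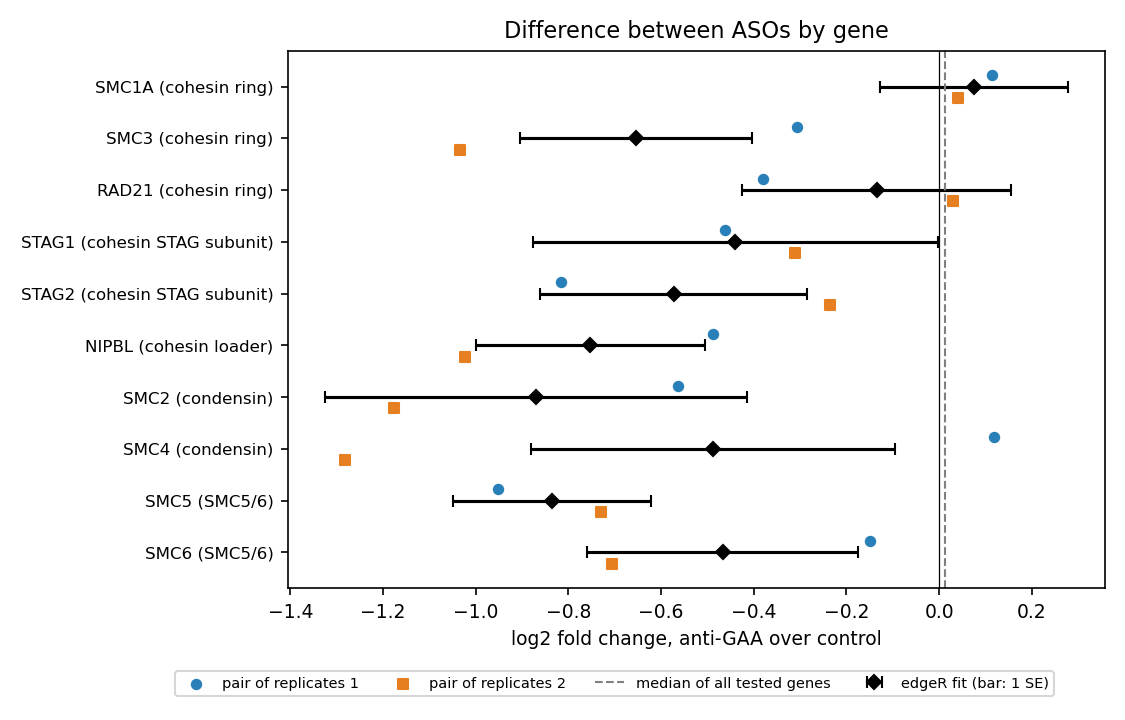
Log2 fold change of each gene, anti-GAA over control, with black diamonds for edgeR's fit without the block, bars of 1 SE, blue circles and orange squares for the pairs of replicates 1 and 2, and a dashed line at the median of all tested genes. Both pairs lie below 0 for 7 genes, and RAD21 and SMC4 have pairs on either side of 0.

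By complex, the median log2 fold change was −0.51 for the 6 cohesin genes, of which 5 were lower, −0.68 for SMC2 and SMC4 and −0.65 for SMC5 and SMC6. Over the 10 genes the medians were −0.42 in the pair of replicates 1 and −0.72 in that of replicates 2, against −0.0041 and 0.020 for all tested genes. Both pairs were lower for 7 genes, a share of 70.0% against 30.03% of all tested genes and 37.2% of those with transcripts as long.

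The balance of partner subunits within a library does not depend on its scaling. The log2 ratio of SMC3 to SMC1A was −1.12 and −1.84 in the anti-GAA libraries, against −0.70 and −0.76 in the controls, lower in both anti-GAA libraries than in either control. The ratio of NIPBL to MAU2, its partner in the cohesin loader, was −1.23 and −1.30 against −0.78 and −0.52 and did not overlap either. The mean differences were −0.75 and −0.62 (two-sided exact permutation test over libraries, p = 0.333 for each, the smallest that 2 against 2 libraries allow). The ratio of SMC6 to SMC5 was −0.59 and −0.75 in the anti-GAA libraries, against −1.39 and −0.78 in the controls, and higher by 0.80 and 0.024 in the pairs (exact permutation test, p = 0.333). The ratios of RAD21 to SMC1A, STAG2 to STAG1 and SMC4 to SMC2 overlapped between the ASOs (exact permutation test, p = 0.667 for each of these 3). All 6 ratios were computed as 1 family, in which no p could pass 0.05.

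Fold changes are given here by the longest run, without a test over the 10 genes. SMC2 and SMC1A, both with 11 nt, had the lowest and the highest log2 fold change, −0.87 and 0.075. SMC3, SMC5 and SMC6, with 10 nt, had −0.65, −0.84 and −0.47, and STAG2, with 9 nt, had −0.57. RAD21, STAG1 and SMC4, with 8 nt, had −0.14, −0.44 and −0.49, and NIPBL, with 16 nt, had −0.75. Over all tested genes the median log2 fold change was 0.030 with a longest run under 9 nt, −0.037 with 9 to 11 nt, −0.11 with 12 to 14 nt, −0.44 with 15 to 17 nt and −0.39 with 18 nt or more. Among tested genes with transcripts as long as those of the 10 genes, it was −0.019 with a run under 9 nt, −0.078 with 9 to 11 nt and −0.22 with 12 nt or more. Without NIPBL, the other 9 genes had a median of −0.49, and none of them holds a run of at least 12 nt. The part of the runs and of shorter matches to the ASO in these fold changes was not tested.

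**Figure D3:**
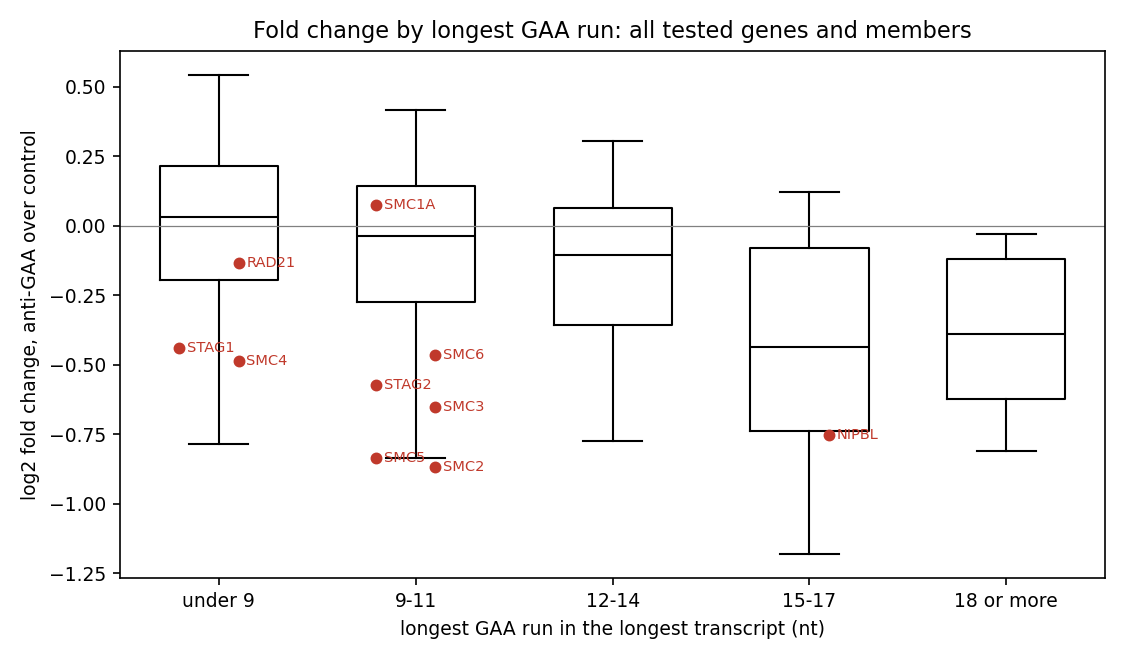
Log2 fold change, anti-GAA over control, of all tested genes with a transcript sequence, by the longest GAA run in the longest transcript in nt (boxes show the quartiles and median, whiskers the percentiles 5 and 95), with the 10 genes as red points. SMC1A lies above the median of its class and the other 9 below the median of theirs, and NIPBL is the only one with a run of at least 12 nt.

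The 10 genes have long transcripts, and tested genes with transcripts as long had a median log2 fold change of −0.043. With the trend of each library on transcript length and GC content removed, the median of the 10 genes was −0.39 against 0.058 for all tested genes, and 8 of the 10 were below 0. The part of transcript length in the remaining difference was not tested. Of 12 markers of G2 and mitosis 4 were lower with the anti-GAA ASO, with a median of 0.091 and a range from −0.47 (TOP2A) to 0.32 (CDC20), and none passed an adjusted p of 0.05 in edgeR with or without the block. Without the block 0 had an unadjusted p under 0.05 in either direction (3.46% of all tested genes lower and 1.02% higher). With it 1 did in each (9.7% lower and 6.86% higher).

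Of 31 further cohesin, condensin, SMC5/6 and SMC-like genes, 28 were tested, and the meiotic genes SMC1B, RAD21L1 and STAG3 were too low to test. Of the 28, 18 were lower and 10 higher, with a median log2 fold change of −0.088. None passed an adjusted p of 0.05 in edgeR. In that fit RAD50, REC8 and PDS5B (3) had an unadjusted p under 0.05, all lower, against 3.46% of all tested genes. DESeq2 called none and had RAD50 and REC8 (2) at an unadjusted p under 0.05, against 2.1% of all tested genes, and edgeR with the block called RAD50 (1), against 1.37% called lower. At an unadjusted p under 0.05 the fit with the block had 7 of the 28 lower and 2 higher, against 9.7% and 6.86% of all tested genes. Whether these 28 genes differ from the 10 was not tested.

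RAD50, an SMC-like ATPase of the MRN complex that senses broken DNA, had 12.3 and 13.7 CPM in the anti-GAA libraries, against 23.8 and 32.1 CPM in the controls. Its log2 fold change was −1.10 (SE 0.25, adjusted p = 0.686 from edgeR), with −0.94 and −1.23 in the pairs. RAD50 fell in the fit with the replicate block (−1.10, SE 0.17, adjusted p = 0.00833 from edgeR), and its longest GAA run was 9 nt.

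REC8, the meiotic counterpart of RAD21, was low, at 1.72 and 1.40 against 4.50 and 2.89 CPM, with a log2 fold change of −1.25 (SE 0.42). PDS5B, which binds cohesin and regulates its release, holds a run of 12 nt and had 13.3 and 13.0 CPM against 18.8 and 21.7 CPM, with a log2 fold change of −0.62 (SE 0.23). The highest of the 28 were CTCF, which stops loop extrusion, at 0.38 (SE 0.25), NSMCE4A, a subunit of SMC5/6, at 0.33 (SE 0.23), and PTTG1, the inhibitor of separase, at 0.24 (SE 0.27). Each had higher values in both pairs, but the groups overlapped for all 3.

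By group, the 12 genes of cohesin loading, release and establishment were evenly split, with 6 lower and a median of −0.012. The non-SMC subunits of condensin I (NCAPD2, NCAPG and NCAPH) had a median of −0.25 with 2 of 3 lower, and those of condensin II (NCAPD3, NCAPG2 and NCAPH2) of −0.077 with all 3 lower. The 7 non-SMC subunits and partners of SMC5/6 had a median of −0.032 with 4 lower and 3 higher, and SMC5 and SMC6 themselves had −0.84 and −0.47. Of the 7, SLF1, NSMCE2 and SLF2 had −0.54, −0.50 and −0.26. Both anti-GAA libraries lay below both controls for these 3, as for 16.9% of all tested genes. The SMC-like ATPases RAD50 and SMCHD1 had −1.10 and −0.48.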

How the data were processed

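Per the study's methods, reads were trimmed and mapped to hg19 by STAR, those on GL contigs were discarded, and the rest were assigned to Ensembl genes by featureCounts. The authors deposited the resulting raw counts per gene, which had not been normalized, and 0 columns of values were left unused. The Ensembl release, whether strand was used in counting, and what became of reads that match more than 1 gene are not given in the sources used here. The methods name DESeq2 for the comparison of ASOs.

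Here filterByExpr kept 15116 of 63677 genes, which were scaled by TMM and tested with edgeR 4.0.16 in R 4.3.3 (quasi-likelihood F-test). The model held the ASO alone, and p was adjusted by Benjamini-Hochberg across all tested genes. The SE is the size of the log2 fold change divided by the square root of F. Pair differences and ratios use log2 CPM (prior count 2). DESeq2 1.42.0, a replicate block, other scalings and filters, leaving out each library, and offsets for length and GC content (mgcv 1.9.3) were alternatives. Counts were also simulated with a replicate effect, taken from the controls and put in alike for both ASOs, a setting that favours the block. There the fits returned the fold changes put in. The edgeR fit without the block called none of the changed genes, and DESeq2 without the block called part of them. Missed calls without the block were largely set by that setting, since the shared effect then counts as spread between libraries. An absence of calls in the real data does not by itself show that levels were equal. The simulation does not show how many changes were missed there, or that the real libraries are paired. GENCODE 44 on GRCh38 gave symbols, transcripts and positions through the Ensembl identifier (52181 genes matched), and no hg19 position was converted. GAA and TTC runs and matches to the ASO target were searched in any frame on the RNA strand.

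The 10 genes, the further genes and the marker lists were chosen with earlier results of these data known. Among the further genes, those named with values are the ones called with or without the block and the 3 lowest and 3 highest with a mean of at least 1 CPM. HDAC8, SMCHD1, SLF1, SLF2, NSMCE2 and the members of small groups were named after their values were seen.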

Additional observations from a re-analysis of the deposited data

How the results depend on the processing

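The median log2 fold change of the 10 genes stayed below 0 in all alternatives, from −0.39 with the length and GC correction to −0.70 when anti-GAA replicate 1 was left out (−0.70 to −0.45 over the 4 libraries), and 8 to 10 of the 10 genes were lower. Replicate numbers are shared between the ASOs in the labels, without a statement that they mark a shared culture or day. The deviations of genes from their group mean correlated within a replicate number (r = 0.564 across genes, which are not independent replicates), and with 2 pairs this is a hint only. Under the replicate block (1 residual degree of freedom) edgeR called 207 genes lower and 51 higher, 1 of the 10 genes (SMC5) and 1 further gene (RAD50), and with the block and the length and GC correction 185 lower, 99 higher, 1 of the 10 (SMC5) and 1 further gene (RAD50). Chosen after seeing the data, DESeq2 with the block called 45 lower, 13 higher and 1 further gene (RAD50). Without the block DESeq2 called 5 genes lower, and edgeR with no filter on low counts 111 lower, 5 higher and 1 further gene (RAD50). Leaving out 1 library gave 0 to 16 genes lower and 0 to 3 higher, with 16 and 2 when control replicate 1 was left out, 2 and 3 when anti-GAA replicate 2 was, and none of the 10 genes called. Among single genes, SMC1A turned to −0.021 with scaling to total counts and to −0.052 and −0.010 when control replicate 1 or anti-GAA replicate 2 was left out, RAD21 to 0.036 with the length and GC correction, 0.0065 with that correction and the block, and ranged from −0.57 to 0.21 over the 4 fits that leave out a library, and SMC4 ranged from −1.18 to 0.0099 over the same fits. In those fits STAG1 ranged from −0.73 to −0.075, STAG2 from −0.88 to −0.18, SMC6 from −0.77 to −0.092, SMC2 from −1.44 to −0.40 and SMC3 from −0.94 to −0.40. The causes were not tested. The longest GAA run was the same in the canonical transcript for all 10 genes, and was 11 nt in STAG1, STAG2 and SMC5 when introns were included.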
